A study of Mus musculus with 20 samples.

Results

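The genes described here are 9 components of transforming growth factor beta (TGF-beta) signalling in mouse liver, taken as the 9 gene symbols of the deposited count table that name a ligand (Tgfb1, Tgfb2, Tgfb3), a receptor (Tgfbr1, Tgfbr2), an intracellular mediator or inhibitor (Smad3, Smad7), an activator of the latent ligand (Thbs1) or a related ligand made by hepatocytes (Inhbe). They are 9 of 46095 gene symbols in the table, and 9 of 9 passed the filter on low counts, which kept 14440 genes. RNA was sequenced from the livers of 20 mice in 4 groups of 5: wild type (WT) on chow, WT on a diet that produces non-alcoholic steatohepatitis (NASH diet), liver-specific Pck1 knockout (KO) on chow, and the same knockout on the NASH diet. Pck1 encodes cytosolic phosphoenolpyruvate carboxykinase, an enzyme of glucose synthesis. Feeding lasted 24 weeks and age at collection was 31 to 33 weeks, per the labels. Neither the transgene that drove the deletion nor the make-up of the NASH diet is stated in the labels. Coordinates below are from GENCODE M21 on GRCm38.

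TGF-beta is secreted bound to its own propeptide as a latent complex, which is held in the extracellular matrix by latent TGF-beta binding proteins and opened by integrins or thrombospondin. The active ligand binds a type II receptor, which recruits and phosphorylates a type I receptor, and this in turn phosphorylates Smad proteins that enter the nucleus and change transcription. In the liver the pathway is best known for turning hepatic stellate cells into collagen-producing myofibroblasts during fibrosis.

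The libraries held 9958935 to 20601955 counts, so that 1 CPM (a count divided by the TMM-scaled library size, on a common scale) stood for 6.80 to 24.9 reads. Pck1, the deleted gene, had a log2 difference, KO minus WT, of -2.51 on chow and -2.36 on the NASH diet, with no overlap between genotypes. The groups differed in sex as read from Y-linked genes: 5 of 5 libraries were male in WT chow, 1 of 5 in WT NASH (replicate 4), 3 of 5 in KO chow and 4 of 5 in KO NASH. In 6 libraries (WT chow replicates 3, 4 and 5, WT NASH replicate 4, KO chow replicates 4 and 5) long genes had lower values relative to short genes, with a slope of log2 CPM on log2 exon length of -0.34 to -0.25, against 0.01 to 0.19 in the other 14. KO NASH replicates 1 and 5 were closer to each other (r = 0.9875 over log2 CPM) than any other pair within a group, but differed by more than sampling noise.

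Of the 9 genes, only Inhbe passed the edgeR test in any comparison of 2 groups. Its RNA was 3.66-fold lower in WT NASH than in WT chow and 4.13-fold higher in KO NASH than in WT NASH, and the groups did not overlap in either comparison. The remaining 8 genes, which include all 3 TGF-beta ligands and both receptors, had no edgeR call at an adjusted p under 0.05 in any of the 4 comparisons. For WT NASH against WT chow 1 of 9 was called, against 5.93% of all genes tested. KO chow against WT chow had 0 of 9 called (background 5.53%) and KO NASH against WT NASH had 1 of 9 (background 9.65%). KO NASH against KO chow had 0 of 9 (background 3.29%), and the interaction of genotype and diet had 0 of 9 (background 0.139%). At an unadjusted p under 0.05 these counts of 0 became 1 of 9 for KO chow against WT chow (19.4% of all genes), 2 for the diet in KO mice (22.2%) and, in the interaction, 1 (8.25%). DESeq2 called 1, 2 and 1 of the 9 in the same 3 tests (9.62%, 9.02% and 1.31% of all genes). limma voom called 3, 1 and 1 (40.4%, 12.7% and 13.5% of all genes). Groups did not overlap for 1 of 9 in WT NASH against WT chow (6.15% of all genes) and in KO NASH against WT NASH (14.1%), and for 0 of 9 in KO chow against WT chow (4.91%) and in KO NASH against KO chow (8.5%). These shares of 9 genes were near the background, and Inhbe is therefore described as a single gene. The median log2 fold change of the 9 genes was 0.62 for the diet in WT mice (all genes 0.01) and 0.45 for the diet in KO mice (all genes -0.02). For genotype it was -0.01 on chow (all genes 0.00) and 0.52 on the NASH diet (all genes 0.00). Comparisons that share a group, such as the first 2 with WT chow, share those libraries.

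**Figure D1:**
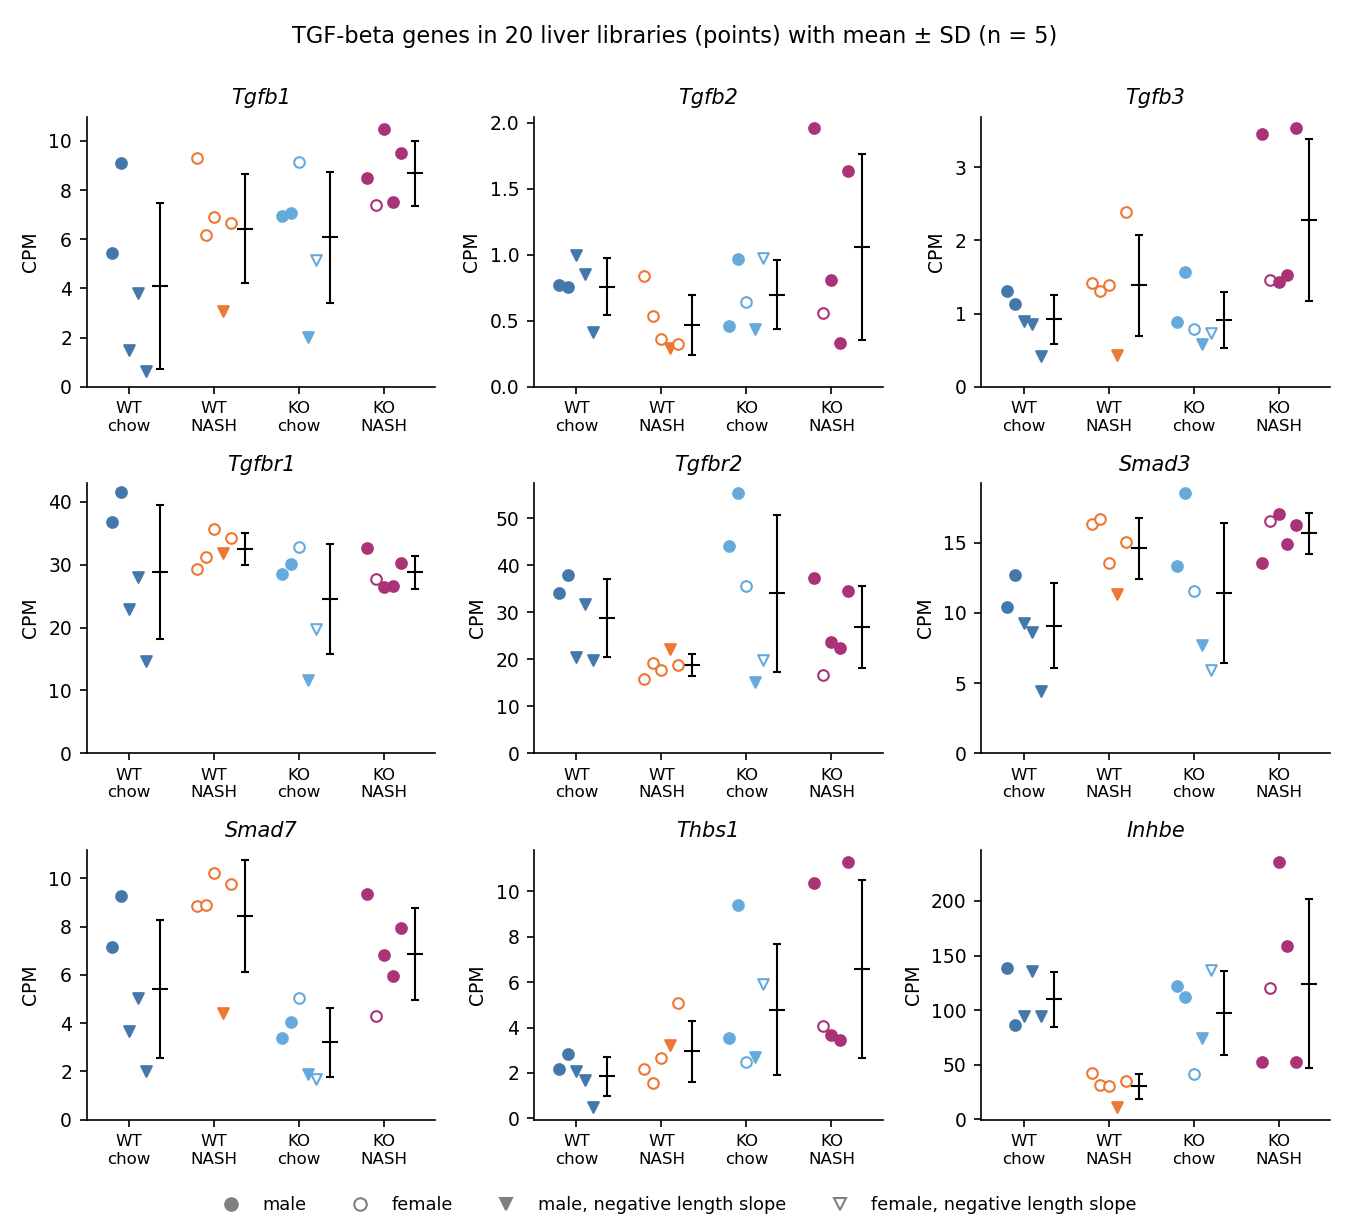
Level of each of the 9 TGF-beta genes (CPM, linear axis) in each library, by genotype and diet, with the group mean ± SD (n = 5) as a bar; filled points are male, open points female, and triangles the 6 libraries of negative length slope. Every WT NASH point of Inhbe lies below those of WT chow and KO NASH, while the groups overlap for each of the other 8 genes in the 4 comparisons made.

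Levels of different genes were compared per kilobase (kb) of exon. Inhbe had the highest mean in each of the 4 groups, at 20.7 CPM per kb on chow and 5.63 on the NASH diet in WT mice, and 18.3 and 23.3 in the knockout. It exceeded the next gene in every library except 1 of WT NASH, where its mean was close to the 4.96 CPM per kb of Tgfbr1. The length used for Inhbe, 5.32 kb, covers all its GENCODE exons, of which the longer gene model begins upstream of the RefSeq start. A shorter length would raise its level per kb. The receptor genes and Smad3 followed, Tgfbr1 at 3.76 to 4.96 CPM per kb, Tgfbr2 at 2.29 to 4.16 and Smad3 at 1.64 to 2.82, and the ranges of Tgfbr1 and Tgfbr2 overlapped in 3 of the groups where they were neighbours in the order. Smad7, Tgfb1 and Thbs1 came next in an order that differed between groups and with ranges that overlapped. Tgfb3 (0.269 to 0.674) and Tgfb2 (0.0813 to 0.183) were lowest in all 4 groups, so that Tgfb1 was the most abundant of the 3 ligands in each group by mean level per kb.

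Among the ligands, Tgfb1 (chromosome 7, 25687002 to 25705077) encodes the isoform most studied in liver fibrosis. Replicates 1 to 5 of the WT mice had 5.45, 9.10, 1.49, 3.80 and 0.624 CPM on chow, and 9.30, 6.17, 6.90, 3.09 and 6.65 CPM on the NASH diet. The knockout replicates, listed in the same order here and below, had 6.95, 7.08, 9.16, 2.03 and 5.16 CPM on chow against 8.48, 7.39, 10.5, 7.52 and 9.52 CPM on the NASH diet. The KO NASH group was the tightest and its mean the highest of the 4, but it overlapped each group it was compared with. In WT chow, KO chow and WT NASH the libraries of negative length slope were the lowest of their group. In edgeR the diet difference of WT mice was 0.64 on the log2 scale (SE 0.479, adjusted p = 0.439), and KO NASH exceeded WT NASH by 0.42 (SE 0.469, adjusted p = 0.615). The 95% interval of the latter, -0.56 to 1.40, includes 0. The diet estimate in WT was 0.01 without the 6 libraries of negative length slope, and 1.79 with an adjusted p = 0.00274 in limma voom with quality weights. The value of Tgfb1 moved with the fit.

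Tgfb2 (chromosome 1, 186622792 to 186705989) and Tgfb3 (chromosome 12, 86056745 to 86079041) encode the other two isoforms and were counted by 2 to 46 and 3 to 81 reads per library. For Tgfb3 the chow-fed WT livers had 1.30, 1.14, 0.896, 0.855 and 0.416 CPM, and the NASH-diet WT livers 1.42, 1.31, 1.39, 0.441 and 2.39. Chow-fed KO livers had 0.880, 1.57, 0.792, 0.581 and 0.729 CPM of Tgfb3, whereas those on the NASH diet had 3.45, 1.45, 1.43, 1.53 and 3.54. Replicates 1 and 5 of KO NASH stood above all other libraries of the study. KO NASH exceeded KO chow by 1.31 on the log2 scale (SE 0.405, unadjusted p = 0.00410 and adjusted p = 0.0778 in edgeR). DESeq2 called this difference (adjusted p = 0.0257), as edgeR did with WT NASH replicate 4 left out. With KO NASH replicates 1 and 5 both left out it was 0.68. Tgfb2 had the same pair on top, with 1.96 and 1.63 CPM in KO NASH replicates 1 and 5 and 0.556, 0.807 and 0.335 in the other three. WT NASH had 0.839, 0.534, 0.363, 0.294 and 0.323 CPM of Tgfb2. Its difference between KO NASH and WT NASH (1.14, SE 0.462, edgeR adjusted p = 0.122) was 0.23 without that pair. Annotated genes on the opposite strand share 124 exonic bases with Tgfb2 and 163 and 257 with Tgfb3, and whether reads were counted by strand is unknown.

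Tgfbr1 (chromosome 4, 47353222 to 47414931) encodes the type I receptor kinase and Tgfbr2 (chromosome 9, 116084293 to 116175360) the type II receptor that binds the ligand. Tgfbr1 averaged 28.8 ± 10.7 CPM in chow-fed and 32.4 ± 2.53 in NASH-diet WT mice (mean ± SD, n = 5). The corresponding KO means were 24.5 ± 8.70 and 28.8 ± 2.66 CPM. Its estimates lay between -0.23 and 0.23 on the log2 scale in the 4 comparisons of groups, with 95% intervals that stayed within -0.76 to 0.76. A 2-fold change of Tgfbr1 in either direction lay outside those intervals.

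Tgfbr2 showed more spread on chow than on the NASH diet in WT mice. WT livers on chow had 34.0, 38.0, 20.5, 31.7 and 19.7 CPM, and those on the NASH diet 15.9, 19.3, 17.7, 22.2 and 18.8. KO livers on chow ran from 44.1, 55.5 and 35.6 CPM in replicates 1 to 3 down to 15.2 and 19.7 in replicates 4 and 5, and the NASH-diet KO livers had 37.4, 16.7, 23.7, 22.4 and 34.5. The 5 WT NASH libraries were all low, and overlapped only with the 2 lowest WT chow libraries, both of negative length slope. The WT diet difference was -0.62 (SE 0.304, edgeR adjusted p = 0.235). In edgeR it was called with the length slope as a term (-0.80, adjusted p = 0.0354) and without the 6 libraries of negative slope (-0.99, adjusted p = 0.0349). With sex as a term it was -0.20. Of the WT libraries, 4 of 5 on the NASH diet and 0 of 5 on chow were female. In KO mice the diet difference of Tgfbr2 was -0.34 (SE 0.301, edgeR adjusted p = 0.508), and -0.75 without the 6 libraries (edgeR adjusted p = 0.0460).

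Smad3 (chromosome 9, 63646767 to 63757994) is phosphorylated by the type I receptor and carries the signal to the nucleus. Smad3 was at 10.4, 12.7, 9.25, 8.64 and 4.43 CPM in the chow-fed WT livers and at 16.3, 16.7, 13.6, 11.3 and 15.0 CPM on the NASH diet. The KO values were 13.3, 18.5, 11.6, 7.70 and 5.89 CPM on chow, then 13.5, 16.5, 17.1, 14.9 and 16.2 CPM on the NASH diet. In WT mice, 4 of 5 libraries on the NASH diet were above all 5 on chow, the exception being the male library of negative slope. Those 4 were female, and all 5 on chow were male. That diet difference was 0.68 (SE 0.272) with an edgeR adjusted p = 0.142. Only limma voom with quality weights called it (0.90, adjusted p = 0.00423), where voom called 40.6% of all genes. Over 33 other settings, voom among them, it ran from 0.29 to 0.90. Genotype made little difference to Smad3 on the NASH diet (0.10, 95% interval -0.46 to 0.66).

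Smad7 encodes the inhibitory Smad that TGF-beta induces and that blocks the type I receptor. The 5 WT libraries on chow had 7.17, 9.26, 3.68, 5.03 and 2.01 CPM of Smad7, and the 5 on the NASH diet 8.85, 8.90, 10.2, 4.41 and 9.75. Among KO libraries the values were 3.38, 4.06, 5.05, 1.89 and 1.70 CPM on chow and 9.34, 4.32, 6.83, 5.94 and 7.94 with the NASH diet. KO chow had the lowest mean, and within each chow group the libraries of negative length slope were below the others. Among libraries without that slope, the 3 of KO chow (3.38 to 5.05) were all below the 2 of WT chow (7.17 and 9.26). The KO effect on chow was -0.75 (SE 0.367, edgeR adjusted p = 0.269), and was called at -1.03 (adjusted p = 0.00508) with the length slope as a term and at -0.97 (adjusted p = 0.0476) without the 6 libraries. limma voom put it at -0.13. The diet difference in KO mice was 1.09 (SE 0.366, edgeR adjusted p = 0.1002), which DESeq2 (adjusted p = 0.0417) and limma voom (adjusted p = 0.0372) called. For Smad7 the call depended on the fit in both comparisons.

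Thbs1 (chromosome 2, 118111876 to 118127133) encodes thrombospondin-1, a matrix protein of platelets and mesenchymal cells that can release TGF-beta from its latent complex. Chow-fed WT livers held 2.19, 2.82, 2.09, 1.71 and 0.485 CPM of Thbs1 and chow-fed KO livers 3.52, 9.37, 2.48, 2.69 and 5.89. With the NASH diet the WT values were 2.20, 1.54, 2.66, 3.24 and 5.10 CPM, against 10.4, 4.06, 3.66, 3.45 and 11.3 in the knockout. On chow 3 of the 5 KO libraries exceeded every WT library, and on the NASH diet KO replicates 1 and 5 did so. The KO effect was 1.36 on chow (SE 0.483, edgeR adjusted p = 0.107; DESeq2 adjusted p = 0.0435) and 1.16 on the NASH diet (SE 0.472, edgeR adjusted p = 0.123). Without KO NASH replicates 1 and 5 the latter was 0.36, while the chow estimate ran from 0.97 to 1.59 over 33 other settings and was called in 1 of them. Platelet markers were low, with a summed level of 6 genes of 0.883 to 5.71 CPM over all libraries and Gp1bb at 0 in all libraries of 3 groups. Their sum was 0.883 to 1.78 CPM in WT NASH and 2.30 to 3.55 CPM in KO NASH, without overlap, the same direction as Thbs1. Of single genes, 14.1% did not overlap there. In KO NASH replicates 1 to 5 the sum was 3.28, 3.55, 3.04, 2.30 and 2.40 CPM, whereas Thbs1 was highest in replicates 1 and 5. On chow the sum was 1.48 to 4.28 CPM in WT and 1.85 to 5.71 CPM in KO. The part of platelets in the Thbs1 values was not tested. An annotated gene on the opposite strand shares 208 exonic bases with Thbs1.

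KO NASH replicates 1 and 5 were both above the other 3 libraries of the group for 6 of the 9 genes (Tgfb2, Tgfb3, Tgfbr1, Tgfbr2, Smad7 and Thbs1), an arrangement found in 24.4% of all genes tested. For Inhbe they were both below, as in 21.5% of all genes. The libraries of negative length slope were all lower than the rest of their group for 7 of the 9 genes in WT chow (30.5% of all genes) and for 6 of 9 in KO chow (28.3%). The exons of the 9 genes span 3.38 to 8.19 kb, and 8 of the 9 are longer than the median tested gene of 4.21 kb. Whether this length pattern reflects the RNA or the library was not tested.

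Inhbe (chromosome 10, 127348857 to 127354411, minus strand) encodes the beta E subunit of inhibin, which dimerises to activin E, a TGF-beta family ligand secreted by hepatocytes. In WT mice Inhbe was at 138, 86.7, 94.3, 136 and 94.4 CPM on chow, and at 42.4, 31.3, 30.1, 10.7 and 35.2 CPM on the NASH diet. In the knockout it was at 122, 112, 41.2, 74.5 and 136 CPM on chow, and at 52.7, 119.9, 236, 159 and 52.8 CPM on the NASH diet. Every WT NASH library was below every WT chow library and every KO NASH library, the closest approach being 42.4 against 52.7. Mean levels were 109.9 ± 25.0 CPM on chow and 29.95 ± 11.8 on the NASH diet in WT mice, and 97.2 ± 38.8 and 124 ± 77.3 in the knockout (mean ± SD, n = 5). Each library held 73 to 3800 Inhbe reads.

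In WT mice Inhbe was lower on the NASH diet by a log2 fold change of -1.87 (SE 0.417, 95% interval -2.74 to -1.0, edgeR adjusted p = 0.0114), and 3.24% of all genes were called lower there. In KO mice the diet made a difference of 0.35 (SE 0.403, 95% interval -0.49 to 1.19, edgeR adjusted p = 0.613). The genotype difference was -0.18 on chow (SE 0.403, 95% interval -1.02 to 0.66) and 2.05 on the NASH diet (SE 0.419, 95% interval 1.17 to 2.92, edgeR adjusted p = 0.00513), where 4.9% of all genes were called higher in KO. The interaction, which asks whether the KO effect differed between diets, was 2.22 (SE 0.577, unadjusted p = 9.78e-04), with an adjusted p of 0.137 in edgeR, 0.0203 in DESeq2 and 0.0319 in limma voom. Fewer cells that make the RNA and less RNA per cell cannot be told apart in whole liver. Summed hepatocyte markers ranged from 54091 to 104032 CPM in WT NASH, within the 54066 to 120920 CPM of WT chow.

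The KO effect on Inhbe under the NASH diet was called in 33 of 33 other settings, at 1.68 to 3.57. By sex, the 1 female KO NASH library had 119.9 CPM against 30.1 to 42.4 in the 4 female WT NASH libraries, and the 4 male KO NASH libraries had 52.7 to 236 CPM against 10.7 in the 1 male WT NASH library. The diet effect in WT mice was called in 30 of 33 settings. It kept its direction but was not called in edgeR when sex was a term (-2.12, adjusted p = 0.0806), in males alone (-3.38, adjusted p = 0.1004, with 1 WT NASH library) or without the 6 libraries of negative length slope (-1.68, adjusted p = 0.0776). KO NASH replicates 1 and 5 were the lowest 2 of their group, and without them the KO effect was 2.52.

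**Figure D2:**
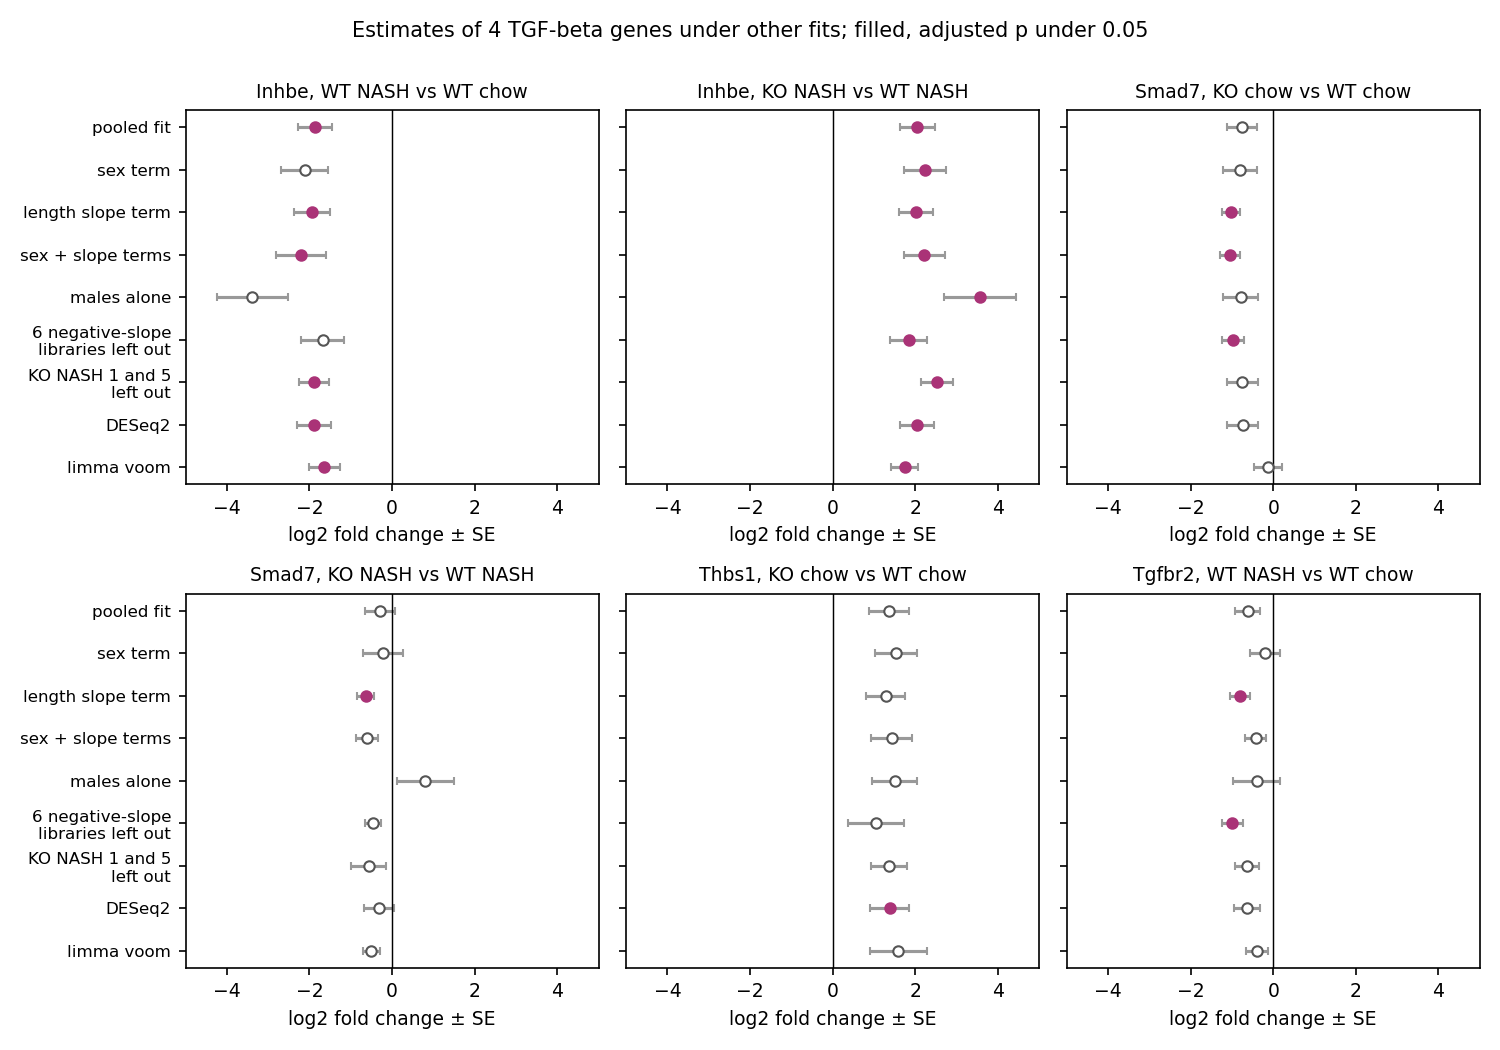
Log2 fold change ± SE (horizontal axis) of Inhbe, Smad7, Thbs1 and Tgfbr2 in 6 gene and comparison pairs under the pooled edgeR fit and 8 other fits (vertical axis); filled points have an adjusted p under 0.05. Inhbe in KO NASH against WT NASH is filled in each of the 9 fits, while Smad7, Thbs1 and Tgfbr2 are filled in some fits and open in the pooled one.

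Inhbe is known as a target of the integrated stress response, in which ATF4 and its partners bind a composite C/EBP-ATF element. The 250 bases upstream of each RefSeq start were searched on both strands for the core of that element, TGATGNAA, which was present in 3.45% of 32851 such windows. Smad7 was left out of the search of single genes, and Tgfb3 and Thbs1 had no window in the table used. Of the 6 TGF-beta genes searched, only Inhbe held the core, and of 10 stress response genes Atf3, Asns, Chac1 and Fgf21 did. The palindromic Smad element GTCTAGAC, present in 0.167% of windows, was in none of the 6. The sequences below show the matches side by side, 5′ to 3′ on the gene's strand from RefSeq on GRCm38.p6, with the match to the core or its reverse complement in capitals. The first lies at chr10:127352011-127352040, with its match 181 to 174 bases before the RefSeq start, inside the first exon of the longer gene model in GENCODE.
Inhbe: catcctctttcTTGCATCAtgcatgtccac
Atf3: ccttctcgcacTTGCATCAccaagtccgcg
Chac1: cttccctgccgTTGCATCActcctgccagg
Fgf21: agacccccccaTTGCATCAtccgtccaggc
Asns: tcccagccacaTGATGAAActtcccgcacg
Inhbe, Atf3, Chac1 and Fgf21 carried the same 8 letters in the same orientation, and Asns a different match on the other strand. A match is a description of the letters and not evidence of binding.

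Stress response genes were mostly higher in KO NASH than in WT NASH, as Inhbe was, with 8 of 10 estimates above 0 and 2 below. In edgeR 4 of 10 were called, against 9.65% of all genes, with Atf3 (log2 fold change 3.17, SE 0.7105, edgeR adjusted p = 0.00914), Trib3 (1.72, SE 0.497, adjusted p = 0.0335) and Fgf21 (1.82, SE 0.553, adjusted p = 0.0423) higher and Chac1 (-2.29, SE 0.405, adjusted p = 0.00165) lower. The median of the 10 was 0.54, against 0.00 over all genes. It was also above that of all genes in the other comparisons of groups. For the diet in WT mice, where Inhbe was lower, it was 0.30 against 0.01, with 6 estimates above 0 and 4 below. The knockout on chow gave 0.39 against 0.00 (7 above, 3 below), and the diet in KO mice 0.33 against -0.02 (6 above, 4 below). Inhbe had no edgeR call in the latter 2. Atf3 is a stress-induced transcription factor, Trib3 a pseudokinase that restrains ATF4 and AKT, and Chac1 a glutathione-degrading enzyme. Fgf21, a hormone from the liver, lies outside the rule for named genes and was added after its values were seen. Its CPM was 4.58, 3.74, 3.09, 0 and 4.78 in WT NASH and 7.50, 9.92, 24.3, 8.77 and 8.48 in KO NASH. The Fgf21 call held in 21 of 33 other settings. Atf3 CPM was 0.71, 1.01, 2.00, 1.03 and 2.07 in WT NASH and 22.3, 2.82, 11.9, 2.44 and 22.7 in KO NASH, and Trib3 in KO NASH was 57.5, 9.40, 12.9, 8.15 and 53.4. KO NASH replicates 1 and 5, lowest for Inhbe, were highest for Atf3 and Trib3. Without those replicates Chac1 was the only one of the 4 still called (-2.14, edgeR adjusted p = 0.0241). The estimate was then 2.11 for Fgf21 (edgeR adjusted p = 0.0852), 2.06 for Atf3 (0.134) and 0.26 for Trib3 (0.780). In WT mice Chac1 was raised by the diet (2.03, SE 0.408, edgeR adjusted p = 0.00618), from 1.13, 1.19, 1.79, 3.23 and 1.18 to 3.49, 4.09, 7.63, 12.1 and 7.17 CPM, where Inhbe was lowered. The part of the stress response in the Inhbe values was not tested.

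**Figure D3:**
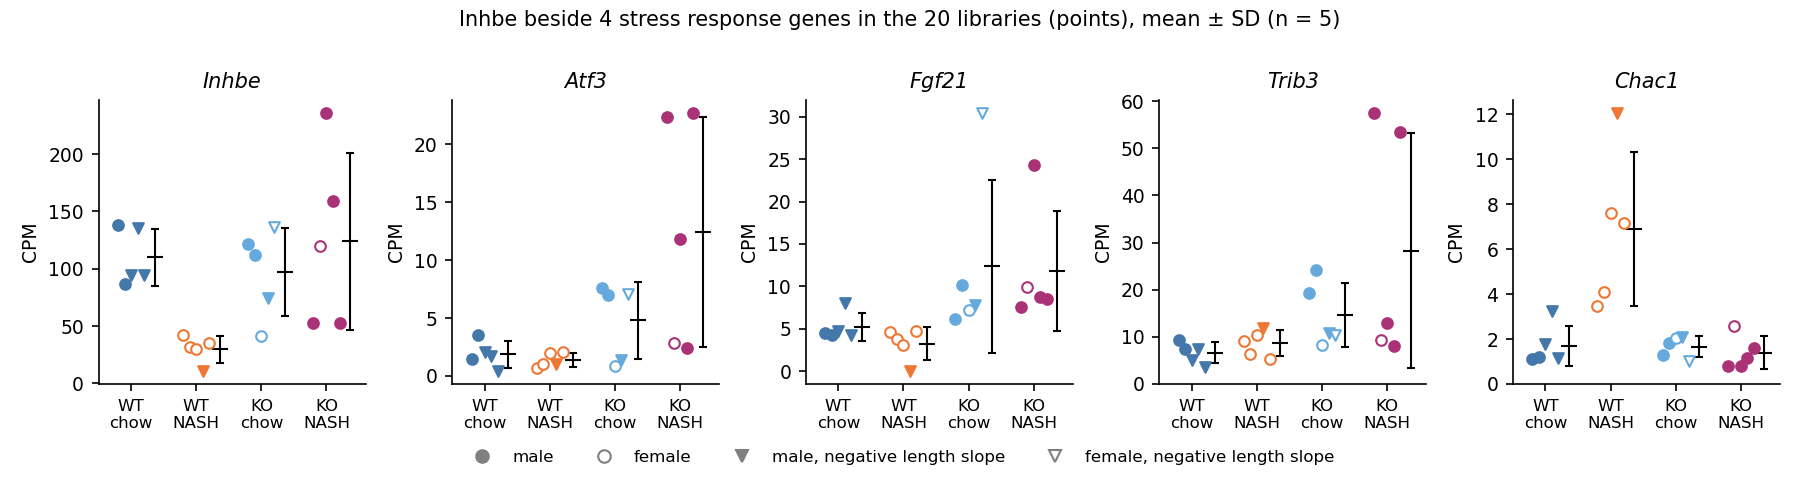
Inhbe and 4 stress response genes (CPM, linear axis) in each library by genotype and diet, with the group mean ± SD (n = 5) as a bar and point shapes by sex and length slope. In KO NASH the 2 highest points of Atf3 and of Trib3 are the same libraries as the 2 lowest of Inhbe, and Chac1 is highest in WT NASH, where Inhbe is lowest.

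**Figure D4:**
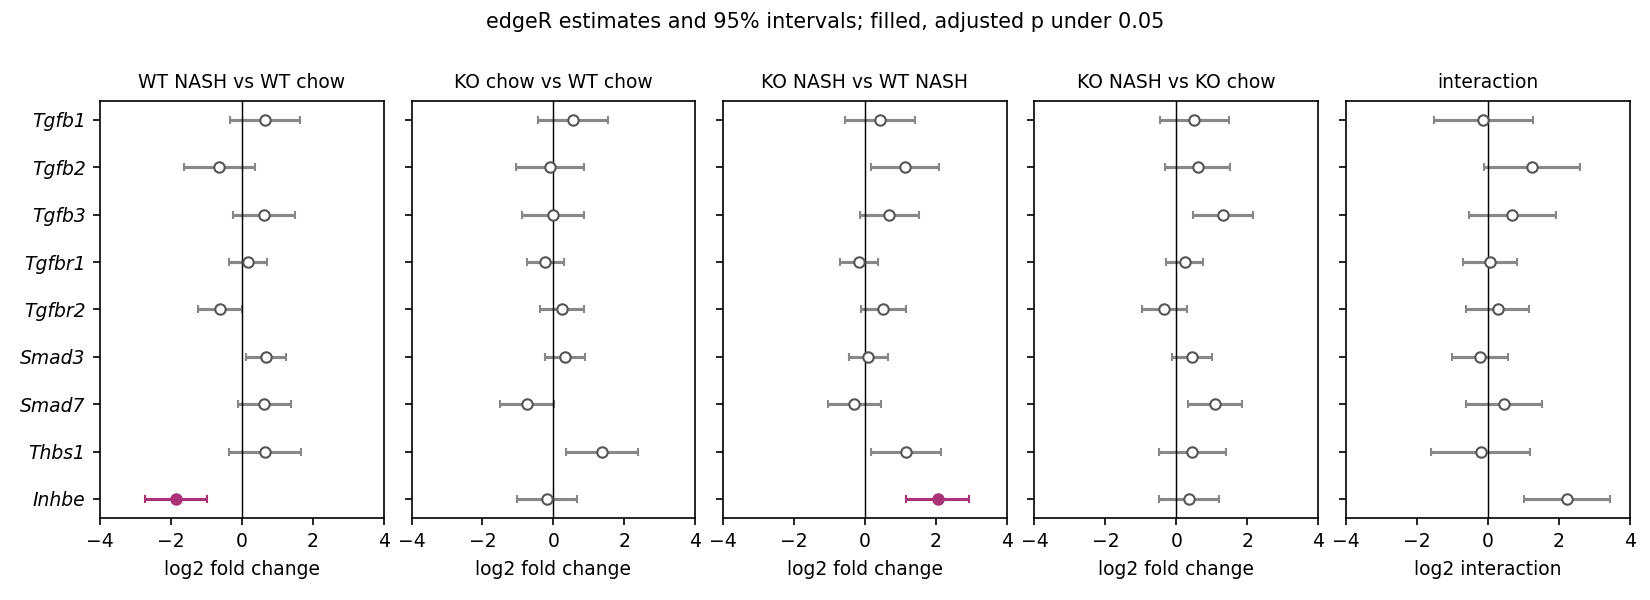
Log2 fold change of each of the 9 genes (points) with its 95% interval (bars) in the 4 comparisons and the interaction from the edgeR fit; filled points have an adjusted p under 0.05. Only Inhbe is filled, in WT NASH against WT chow and in KO NASH against WT NASH, and its interval for the interaction (1.02 to 3.43) is the only one in that panel that lies wholly above 0.

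The other genes of the pathway and the 10 stress response genes were described in 9 lists of 93 genes, of which 82 were tested. In WT mice the NASH diet raised 6 of 82 (7.32%) and lowered 0, against 5.93% of all genes. The 6 included the stress response gene Chac1. In chow-fed mice the knockout raised 2 of 82 (2.44%) and lowered 0, against 5.53% of all genes. KO NASH against WT NASH had 11 higher and 3 lower (17.1% called, against 9.65%), and KO NASH against KO chow had 6 higher and 0 lower (7.32%, against 3.29%). Stress response genes made up 3 of the 11 and 1 of the 3, and 0 of the 6. The interaction had 0 called among the 82 in edgeR (0.139% of all genes) and 8 at an unadjusted p under 0.05 (8.25%). DESeq2 called 1, Chac1 (1.31% of all genes), and limma voom 9 (13.5%). Without KO NASH replicates 1 and 5, which leaves 3 libraries in that group, 1 of the 14 and 0 of the 6 were still called. The 1 was Chac1, so that no TGF-beta pathway gene among the 14 was still called. Each of the 14 and of the 6 kept its direction. Some estimates were about as large without the pair, as for Cd36 (1.80 to 1.86), Skil (-0.78 to -0.95) and Inhba (-1.36 to -1.37), while others were smaller, as for Bmp6 (1.41 to 0.77) and Thbs2 (1.31 to 0.74). With sex as a term 5 of the 14 (Chac1 and Fgf21 among them) and 5 of the 6 were still called. Of the 6 diet calls in WT mice 2 then remained, Cdkn1a and Chac1.

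Genes of the latent complex and its activation act upstream of the receptor. For KO NASH against WT NASH 4 of its 12 tested genes were higher and 0 lower, where 4.9% of all genes were called higher. The list median was 0.82 against 0.00 over all genes. The 4 were Emilin1 (1.19, SE 0.253, edgeR adjusted p = 0.00670), a matrix glycoprotein that restrains processing of the TGF-beta precursor, Lrrc32 (0.95, adjusted p = 0.0219), a cell-surface anchor of latent TGF-beta, Itgb3 (1.15, adjusted p = 0.0450), an integrin subunit, and Ltbp3 (1.21, adjusted p = 0.0495), a latent TGF-beta binding protein. Emilin1 CPM was 16.3, 14.4, 9.99, 7.80 and 12.8 in WT NASH and 34.5, 24.3, 27.4, 19.8 and 34.1 in KO NASH, so that the groups did not overlap. Without KO NASH replicates 1 and 5 the Emilin1 estimate was 0.96 (edgeR adjusted p = 0.0822). Those of Lrrc32, Itgb3 and Ltbp3 were 0.70, 0.56 and 0.93, and none of the 4 was called. With sex as a term Emilin1 alone of the 4 was called. Over 33 other settings Emilin1 was called in 32, Lrrc32 in 27, Itgb3 in 19 and Ltbp3 in 11. For KO NASH against KO chow Ltbp3 (1.55), Emilin1 (1.00) and Ltbp1 (1.06) were higher, with edgeR adjusted p-values of 0.0335, 0.0363 and 0.0465. Over all genes 3.29% were called there, and the list median was 0.71 against -0.02. The groups of WT NASH and KO chow, each against WT chow, had 0 of the 12 called in edgeR (5.93% and 5.53% of all genes). At an unadjusted p under 0.05 the latter counts were 1 and 3, with 0 and 1 in DESeq2 (10.4% and 9.62% of all genes). limma voom called 4 and 5 (40.6% and 40.4% of all genes).

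Among other ligands of the family, the activin A subunit gene Inhba had edgeR calls opposite in sign to those of Inhbe. It was higher with the NASH diet in WT mice (1.33, SE 0.382, edgeR adjusted p = 0.0443) and was lower in KO NASH than in WT NASH (-1.36, SE 0.376, adjusted p = 0.0276). Inhba in WT livers was at 1.66, 1.41, 2.19, 2.56 and 2.36 CPM on chow and at 8.65, 4.69, 4.00, 1.18 and 6.52 on the NASH diet. Inhba in KO livers was at 2.27, 2.65, 2.08, 1.52 and 2.61 CPM on chow and at 2.17, 3.29, 1.06, 1.44 and 1.86 on the NASH diet. The 4 high WT NASH libraries were the female ones and the low one the male, and with sex as a term in edgeR neither difference of Inhba was called (0.52, adjusted p = 0.652, and -0.79, adjusted p = 0.266). In males alone, with 1 WT NASH library, both signs turned (-0.80 and 0.51), and over 33 alternatives the first difference was called in 10 and the second in 21. Bmp6, an iron-regulating bone morphogenetic protein, was higher in KO NASH than in WT NASH (1.41, SE 0.328, edgeR adjusted p = 0.0119), and 0.77 (adjusted p = 0.204) without KO NASH replicates 1 and 5. In edgeR 0 of 9 co-receptors and receptors, 0 of 6 other Smads and their anchor, and 0 of 4 genes that respond to bone morphogenetic protein were called in any comparison of 2 groups. At an unadjusted p under 0.05 the receptor list had at most 1 in a comparison, the Smad list at most 1 and the responsive list 0. DESeq2 called 1 of the Smad list in KO NASH against WT NASH (15.2% of all genes) and 0 otherwise. limma voom called at most 3 of the receptors and 3 of the Smads, in KO chow against WT chow (40.4% of all genes). Of the responsive genes it called at most 2, in WT NASH against WT chow (40.6% of all genes). The inhibitor list had Fkbp1a, a type I receptor binding protein, higher in WT NASH (0.57, adjusted p = 0.0394) and KO chow (0.59, adjusted p = 0.0352) than in WT chow, and Skil, a repressor of Smad-driven transcription, lower in KO NASH than in WT NASH (-0.78, adjusted p = 0.0253), all in edgeR.

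Of 16 tested genes that TGF-beta induces, 3 were higher on the NASH diet in WT mice and 0 lower, against 5.93% of all genes called. The list median was 0.14 against 0.01. Cdkn1a, the cell cycle inhibitor p21, went from 1.08 to 3.70 CPM in WT chow to 10.4 to 54.3 CPM in WT NASH (3.92, SE 0.634, edgeR adjusted p = 0.00111). In edgeR Fn1, fibronectin, rose by 1.25 (SE 0.351, adjusted p = 0.0395) and Bgn, the matrix proteoglycan biglycan, by 0.90 (SE 0.264, adjusted p = 0.0478). With sex as a term the estimates were 1.08 for Fn1 and 0.91 for Bgn, of similar size, and neither was called (edgeR adjusted p = 0.313 and 0.216). KO chow against WT chow had 0 of 16 called in edgeR (5.53% of all genes) and 1 at an unadjusted p under 0.05 (19.4%). DESeq2 called 0 (9.62% of all genes) and limma voom 3 (40.4%). On the NASH diet 1 of 16 was higher in KO than in WT (4.9% of all genes), with a list median of 0.64 against 0.00. This was the type I collagen chain Col1a2 (1.53, SE 0.461, edgeR adjusted p = 0.0408). Its CPM was 10.1, 10.6, 7.57, 15.2 and 12.3 in WT NASH and 48.6, 27.8, 14.1, 22.7 and 47.3 in KO NASH. Without KO NASH replicates 1 and 5 the estimate was 0.97 (edgeR adjusted p = 0.332). In KO mice the diet raised Col1a1 (2.26, SE 0.532, edgeR adjusted p = 0.0287) and Cdkn1a (2.23, SE 0.577, adjusted p = 0.0404), with a list median of 0.70 against -0.02. Summed stellate cell markers moved in the same direction, at 49.2 to 128 CPM on chow and 95.5 to 138 on the NASH diet in WT mice, against 56.4 to 139.9 and 133 to 171 in the knockout. Their part in these results was not tested.

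**Figure D5:**
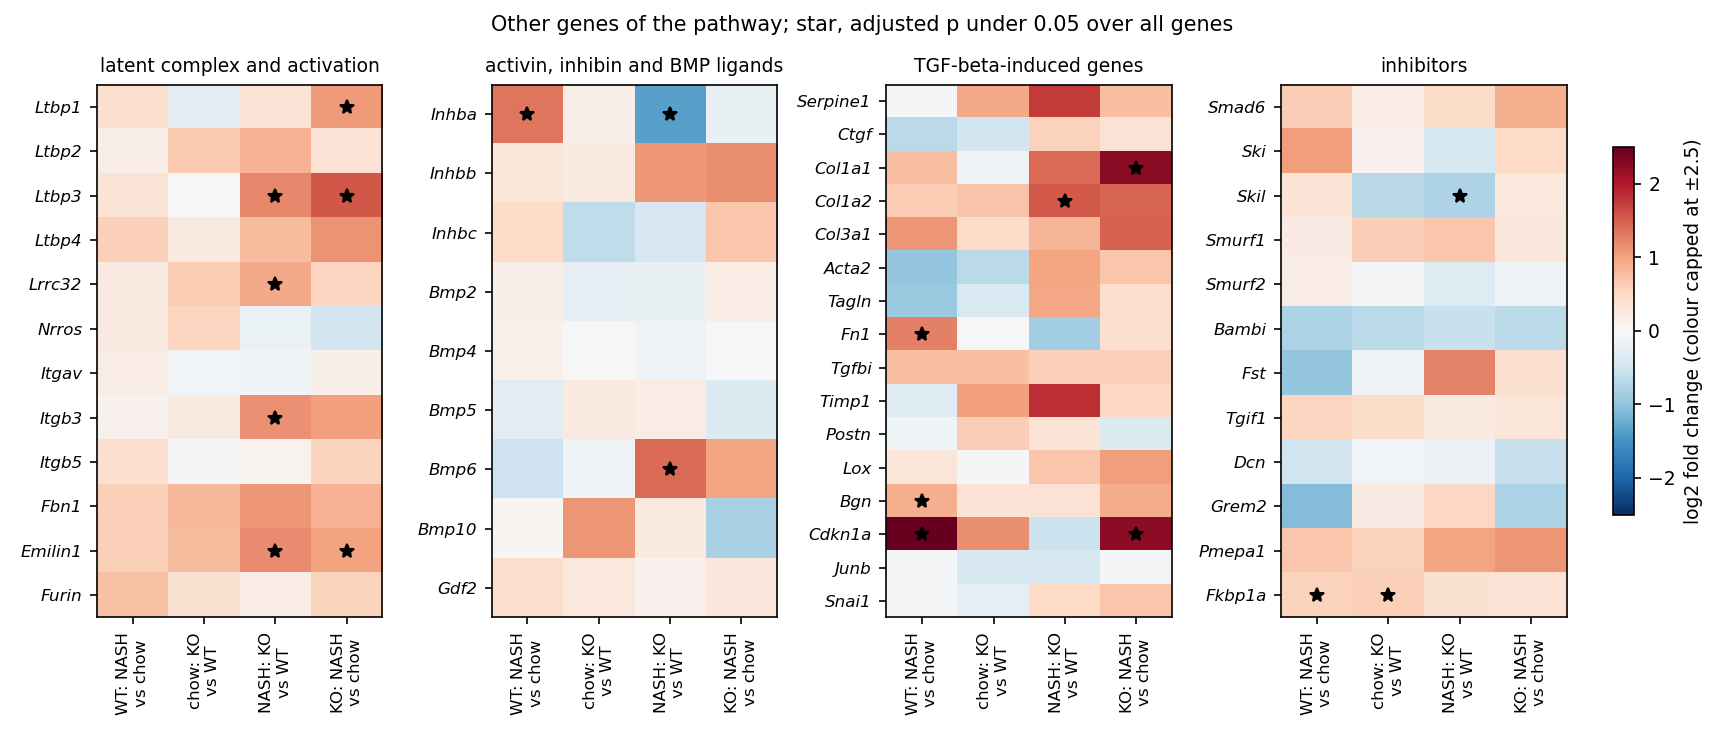
Log2 fold change (colour, capped at 2.5 in either direction) of the tested genes of 4 pathway lists (rows) in the 4 comparisons (columns), with a star where the edgeR adjusted p over all genes is under 0.05. Stars in the latent complex list stand only in the 2 columns of KO NASH, and Inhba carries stars of opposite sign in WT NASH against WT chow and KO NASH against WT NASH.

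Among thrombospondins and their receptors, Cd36, a fatty acid transporter that also binds thrombospondin-1, was higher in KO on chow (3.2, SE 0.475, edgeR adjusted p = 8.11e-04) and on the NASH diet (1.80, SE 0.450, adjusted p = 0.0170), with no overlap between genotypes. Thbs2, the closest relative of Thbs1, was higher in KO NASH than in WT NASH (1.31, SE 0.331, edgeR adjusted p = 0.0181) and than in KO chow (1.37, SE 0.329, adjusted p = 0.0314). Its CPM was 17.5, 8.16, 5.90, 8.29 and 16.1 in KO NASH, against 3.63 to 5.68 in WT NASH. As for Thbs1, replicates 1 and 5 were highest, and without them the 2 estimates for Thbs2 were 0.74 and 0.78 and were not called.

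The genes most like each of the 9 were sought among 11645 candidates by Pearson correlation of log2 CPM over the 20 libraries, which share diet, genotype, sex and length slope. Inhbe was most like Tmem189 (r = 0.898) and Paqr7 (r = 0.896). Both had edgeR calls in the same 2 comparisons and directions. For WT NASH against WT chow and KO NASH against WT NASH these were -1.19 and 1.60 for Tmem189 and -2.01 and 1.80 for Paqr7. Both genes were chosen for likeness to Inhbe over these same libraries, so the shared calls are not a separate result. Thbs1 was most like Rap1gap2 (r = 0.863) and Col4a1 (r = 0.860), a basement membrane collagen chain at 18.8 ± 7.64 CPM on chow and 28.9 ± 2.77 on the NASH diet in WT mice, and at 61.5 ± 32.2 and 93.6 ± 35.5 CPM in the knockout (mean ± SD, n = 5). The most alike for the ligands were Rps6ka4 for Tgfb1 (r = 0.940), Abcc5 for Tgfb2 (r = 0.799) and Card10 for Tgfb3 (r = 0.870). For the receptors and Smads they were Vcpip1 for Tgfbr1 (r = 0.948), Dmxl2 for Tgfbr2 (r = 0.857), Ankib1 for Smad3 (r = 0.949) and Susd6 for Smad7 (r = 0.942).

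Levels of cell type markers were read beside these genes. Hepatocyte markers were abundant in all 20 libraries. Summed sinusoidal endothelial markers were 199.99 to 308 CPM in WT NASH and 251 to 396 in KO NASH, with Kdr and Lyve1 called higher in KO (2 of 8, list median 0.39). Summed Kupffer cell and macrophage markers were 439 to 836 CPM in WT NASH and 312 to 421 in KO NASH, without overlap, with 1 of 8 called, Timd4, lower (list median -0.55). These values moved with the KO NASH comparison in which Inhbe differed. Markers of monocyte-derived macrophages had 1 of 5 called higher there (Gpnmb), T cells 1 of 4 lower (Cd3g) and pancreas 1 of 1 lower (Cela1). Immediate early genes had 1 of 6 higher (Ier3) and circadian genes 3 of 12 called (Dbp, Arntl and Ciart), 2 higher and 1 lower. Estimates above and below 0 were 3 and 2 for monocyte-derived macrophages and 0 and 4 for T cells. They were 4 and 2 for immediate early genes and 7 and 5 for circadian genes. Over all genes 9.65% were called there. For WT NASH against WT chow, where Inhbe was lower, edgeR called 5.93% of all genes. The red blood cell genes Hbb-bs and Hbb-bt (2 of 5, list median -1.32) were called lower. Called higher were Cd68 (1 of 8, list median 0.02), Cd3e (1 of 4, 0.40), Dusp1 (1 of 6, 0.67) and Arntl and Npas2 (2 of 12, -0.14). Estimates above and below 0 were 4 and 4 for the Kupffer cell and macrophage list and 6 and 6 for the circadian list. Cd68 was also higher in KO chow than in WT chow (1 of 8, list median 0.35, against 5.53% of all genes called). For the diet in KO mice, where 3.29% of all genes were called, Hbb-bs and Hbb-bt were lower (2 of 5, list median -1.79). Higher were the stellate marker Cygb (1 of 7, list median 0.69) and the cholangiocyte marker Sox9 (1 of 4, 1.01). Medians were -1.24 for Kupffer cell and macrophage and -1.33 for B cell markers. These marker genes were named after their values were seen, and their part in the results was not tested. Markers of hepatocytes, stellate cells, cholangiocytes, B cells, neutrophils, red blood cells and mesothelium, and the 1 platelet gene tested, had 0 called by edgeR in KO NASH against WT NASH. At an unadjusted p under 0.05 the counts were 2 of 7 for stellate cells, 1 of 4 for B cells, 1 of 3 for mesothelium and 1 of 1 for platelets. DESeq2 called 1 of 7 for stellate cells and 1 of 1 for platelets, against 15.2% of all genes. limma voom called 3 and 1 of these, against 23.8% of all genes. It also called 1 each of the cholangiocyte, B cell, red blood cell and mesothelium lists.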

How the data were processed

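RNA was sequenced from 20 mouse livers, using RNA with an integrity number above 8 per the labels' protocols. The authors deposited 1 table of raw counts per gene symbol with a column for each library. Per the submitters' processing notes reads were aligned with HISAT2 2.0.4 and the build was GRCm38. The sources used here do not name the counting program, annotation or strand setting. The header writes CD and HFD for the diets, read here as chow and NASH, the 2 diets of the labels. The p-values measure the spread between these libraries, which the labels describe as replicates of a group.

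Tests were run with edgeR 4.0.16 in R 4.3.3. The filter filterByExpr (minimum count 10) kept 14440 genes with 99.91% of all counts. One quasi-likelihood fit with TMM scaling and a coefficient per group covered all 20 libraries (common biological coefficient of variation 39.0%), and a gene was called when its Benjamini-Hochberg adjusted p was under 0.05. CPM used TMM-scaled library sizes. The 9 genes, the pathway and marker lists and the tests were chosen with earlier results of these data known. The genes named are the 9, Pck1, in each comparison the called genes of each pathway list (at most the 3 of smallest p) and, for each of the 9, up to 2 tested genes averaging 1 CPM or more with the highest Pearson correlation with it. Genes outside this rule are said to be so.

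Sex is not in the labels and was read from 4 Y-linked genes (at least 100 counts taken as male). The length slope used 9518 genes whose log2 CPM averaged 2 or more, and GENCODE M21 gave exon lengths for 13502 tested genes (93.5%) by symbol. Alternatives were DESeq2-type size factors, no low-count filter, DESeq2 1.42.0, limma 3.58.1 voom with quality weights, a fit of just the 2 groups in question, a block for replicate number, sex and the slope as terms, males alone, KO NASH replicates 1 and 5 summed, and each library left out. Leaving out the 6 libraries of negative slope, and KO NASH replicates 1 and 5 together, was chosen after seeing the data. The procedure was tested on simulated data. Those data held planted changes but no sex imbalance, length slope or close pair of libraries, and so could not test for these. Promoter windows are from RefSeq on GRCm38.p6.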

Additional observations from a re-analysis of the deposited data

Results flagged for a closer look

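The 9 TGF-beta genes and the called pathway genes named by the rule were examined in groups of 5 libraries. Of these 112 groups, 36 were for the 9 genes. In 6 of the 112 the highest or lowest library stood apart from the other 4 by more than Dixon's limit. Chance flags about 1 in 20 groups, so that 6 of 112 is near that rate. Fgf21, outside that rule, was not among the 112. Its highest library had 8.07 CPM in WT chow (the others 4.22 to 4.78), 30.4 in KO chow (6.16 to 10.1) and 24.3 in KO NASH (7.50 to 9.92). The 1 case among the 9 genes was Smad7, at 4.41 CPM in WT NASH replicate 4 against 8.85 to 10.2 in the other 4, and that library was the only male of its group and had a negative length slope.

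The other 5 cases were genes of the pathway lists. Bmp6 was at 5.59 CPM in KO chow replicate 3 against 2.87 to 3.66, Cdkn1a at 11.46 CPM in KO chow replicate 2 against 1.49 to 3.94, and Fkbp1a at 60.8 CPM in the latter library against 40.0 to 43.9. Skil was at 21.3 CPM in WT NASH replicate 2 against 32.8 to 37.3, and Thbs2 at 7.46 CPM in WT chow replicate 1 against 1.90 to 3.38.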

How the results depend on the processing

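The pooled edgeR fit called 1, 0, 1, 0 and 0 of the 9 genes for, in this order, the diet in WT mice, the knockout on chow, the knockout on the NASH diet, the diet in KO mice and the interaction. These counts differed under the following settings. DESeq2 called 1 for the knockout on chow (Thbs1), 2 for the diet in KO mice (Tgfb3 and Smad7) and 1 for the interaction (Inhbe). limma voom called 4 for the diet in WT mice, 3 for the knockout on chow, 1 for the diet in KO mice and 1 for the interaction. The diet in WT mice had 0 called with sex as a term and in males alone (where the lone WT NASH library is assumed to vary like the other groups), and 2 with the length slope as a term. The slope term also gave 1 for the knockout on chow and 2 for the knockout on the NASH diet, and sex and slope together gave 1 for the knockout on chow. Without the 6 libraries of negative slope the counts were 1 for the knockout on chow and 1 for the diet in KO mice, and the 1 gene of the diet in WT mice was Tgfbr2 in place of Inhbe. Leaving out each library in turn gave 0 to 1 for the diet in KO mice (1 without WT NASH replicate 4, Tgfb3), and 1 to 1, 0 to 0, 1 to 1 and 0 to 0 for the others in the order above. Under a block for replicate number the counts of the 9 genes stayed at 1, 0, 1, 0 and 0. The numbers were not shown to pair libraries: 13 of 30 pairs with the same number deviated together (correlation over 0.1), and 6 of 20 libraries were most like one of their own number. Of 1475 other values for single genes of the 9, 1452 stayed on the same side of the threshold (58 of them, none called, with the other sign), 3 lost the call, 20 gained one and 0 called values reversed. All 3 losses were of Inhbe for the diet in WT mice. Over all genes tested, where edgeR called 857, 798, 1393, 475 and 20, DESeq2 called 1496, 1389, 2196, 1303 and 189, and limma voom 5866, 5836, 3434, 1835 and 1949. The slope term gave 1775, 1656, 2386, 919 and 190. The diet in WT mice had 161 calls with sex as a term, 95 in males and 360 with those groups fitted alone, and the knockout on the NASH diet had 625 with sex as a term, 764 with KO NASH replicates 1 and 5 summed and 388 without them (69.6% higher against 50.8%). For the diet in KO mice the latter counts were 180 and 106 (70.8% higher against 53.7%). In males the median of all genes shifted by 0.19 for KO NASH against WT NASH, with 25.4% of its calls higher. The causes of these differences were not tested.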
